A study of Mus musculus with 6 samples.

Results

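Heat shock proteins and their J-domain co-chaperones were examined in the hearts of 15-day-old mice. The genes were all protein-coding rows of the deposited expression table whose symbol begins with Hspa, Hspb, Hspd, Hspe, Hsph, Hsp90 or Dnaj, leaving out Hspbap1, which gave 73 of the 54532 genes in the table. Whole-heart messenger RNA was sequenced from 3 mice of genotype Nat10-CKO, which lack Nat10 in cardiomyocytes per the series' design text, and from 3 Nat10flox/flox mice, whose Nat10 gene carries the recombination sites alone. The series asks how Nat10, an enzyme that acetylates cytidines in RNA and takes part in ribosome production, affects the developing heart. The sources used here do not give the Cre driver, the exons between the recombination sites or the sex of the mice. Each group held 3 independent biological replicates per the labels, and values for the hearts of a group are listed by replicate number, 1 to 3.

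Molecular chaperones bind unfolded or partly folded proteins and help them fold, assemble, cross membranes or be degraded. Hsp70 proteins do so in cycles of ATP binding and hydrolysis that J-domain proteins start and nucleotide exchange factors end, while Hsp90 acts later on kinases, receptors and, in muscle, myosin. Small heat shock proteins hold unfolded clients without ATP and are abundant in heart muscle, and the mitochondrion and the endoplasmic reticulum (ER) each have Hsp70 and J-domain proteins of their own. From general knowledge of the proteins, 47 of the 73 genes were placed in the cytosol and nucleus, 8 in the mitochondrion and 14 in the ER, and 4 (Dnajc4, Dnajc28, Dnajc22 and Hspb11) were kept apart.

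Reads assigned to genes numbered 15048038 to 16280061 per heart, as recovered from the deposited FPKM (fragments scaled by gene length and by library size). Nat10 itself had 3.69, 3.75 and 4.18 FPKM in the CKO hearts, against 3.87, 3.78 and 4.57 FPKM in the flox hearts. Its log2 change of −0.06 ± 0.12 (SE, limma adjusted p = 0.768) did not pass the threshold, and the groups overlapped, so all directions below are for hearts labelled CKO. CKO replicate 1 stood farthest out on the leading principal component (64.0% of the variance) at 50.02, against 14.9 and 23.9 for CKO replicates 2 and 3 and −38.7 to −19.1 for the flox hearts. Changes without CKO replicate 1 are therefore given beside the main results. Of 12 cardiomyocyte markers, 0 were called higher and 6 lower in CKO hearts, and their summed level was 14298 to 15192 FPKM in CKO hearts, against 19300 to 25254 FPKM in flox hearts. Of 12 fibroblast markers, 5 were called higher and 0 lower, with sums of 1267 to 1670 FPKM in CKO hearts and 862 to 1124 FPKM in flox hearts. Of 11 macrophage and monocyte markers tested, 1 was higher and 0 lower, with sums of 149.9 to 265 FPKM in CKO hearts and 119 to 140.2 FPKM in flox hearts. Of 10 smooth muscle and pericyte markers tested, 0 were higher and 2 lower, with sums of 442 to 514 FPKM in CKO hearts and 578 to 736 FPKM in flox hearts. Of 12 endothelial markers 1 was higher and 0 lower, and their sums overlapped at 579 to 692 FPKM in CKO hearts and 659 to 736 FPKM in flox hearts. Of the 5 erythroid markers tested, limma called 0 and 0 had an unadjusted p under 0.05, with sums of 400.5 to 811 FPKM in CKO hearts and 477 to 822 FPKM in flox hearts. Unadjusted p-values under 0.05 numbered 7, 6, 5, 4 and 3 in the lists from cardiomyocyte to endothelial, against 32.1% of all genes tested. Of all genes tested, limma called 6.93% higher and 7.19% lower. No marker of any list was at 0 in all hearts. In whole hearts, fewer cells of a type and less RNA per cell cannot be told apart, and the part of these shifts in the chaperone results was not tested.

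Few of the chaperone genes were called different between the groups, and the called genes were scattered over families with different roles. Hsp90aa1, Dnajc2 and Hspb8 were higher in CKO hearts, and Dnajc28, Hspa12a and Dnajc4 were lower. The most abundant chaperones of each compartment, among them Hspa8, Hsp90ab1, Hspa9, Hspd1, Hspa5 and Hsp90b1, were not called. Of the 73 genes, 63 averaged 1 FPKM or more over the 6 hearts and were tested with limma on log2(FPKM + 1). At a Benjamini-Hochberg adjusted p under 0.05, 3 (4.76%) were called higher, against a background of 6.93% of all 12469 genes tested. Another 3 (4.76%) were called lower, against a background of 7.19%, so the shares were near or below those of all genes. With limma, 19 of the 63 had an unadjusted p under 0.05, against 32.1% of all genes tested. Changes ran from −1.42 to 1.35 on the log2 scale with a median of 0.07, against a median of −0.001 over all genes tested. The CKO hearts all lay above the flox hearts for 11 of the 63 genes and all below for 6, where 19.7% and 19.9% of all genes tested did so. With 3 hearts against 3, an exact two-sided permutation test cannot give a p below 0.1, and for single genes it adds nothing beyond whether the groups overlap.

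**Figure D1:**
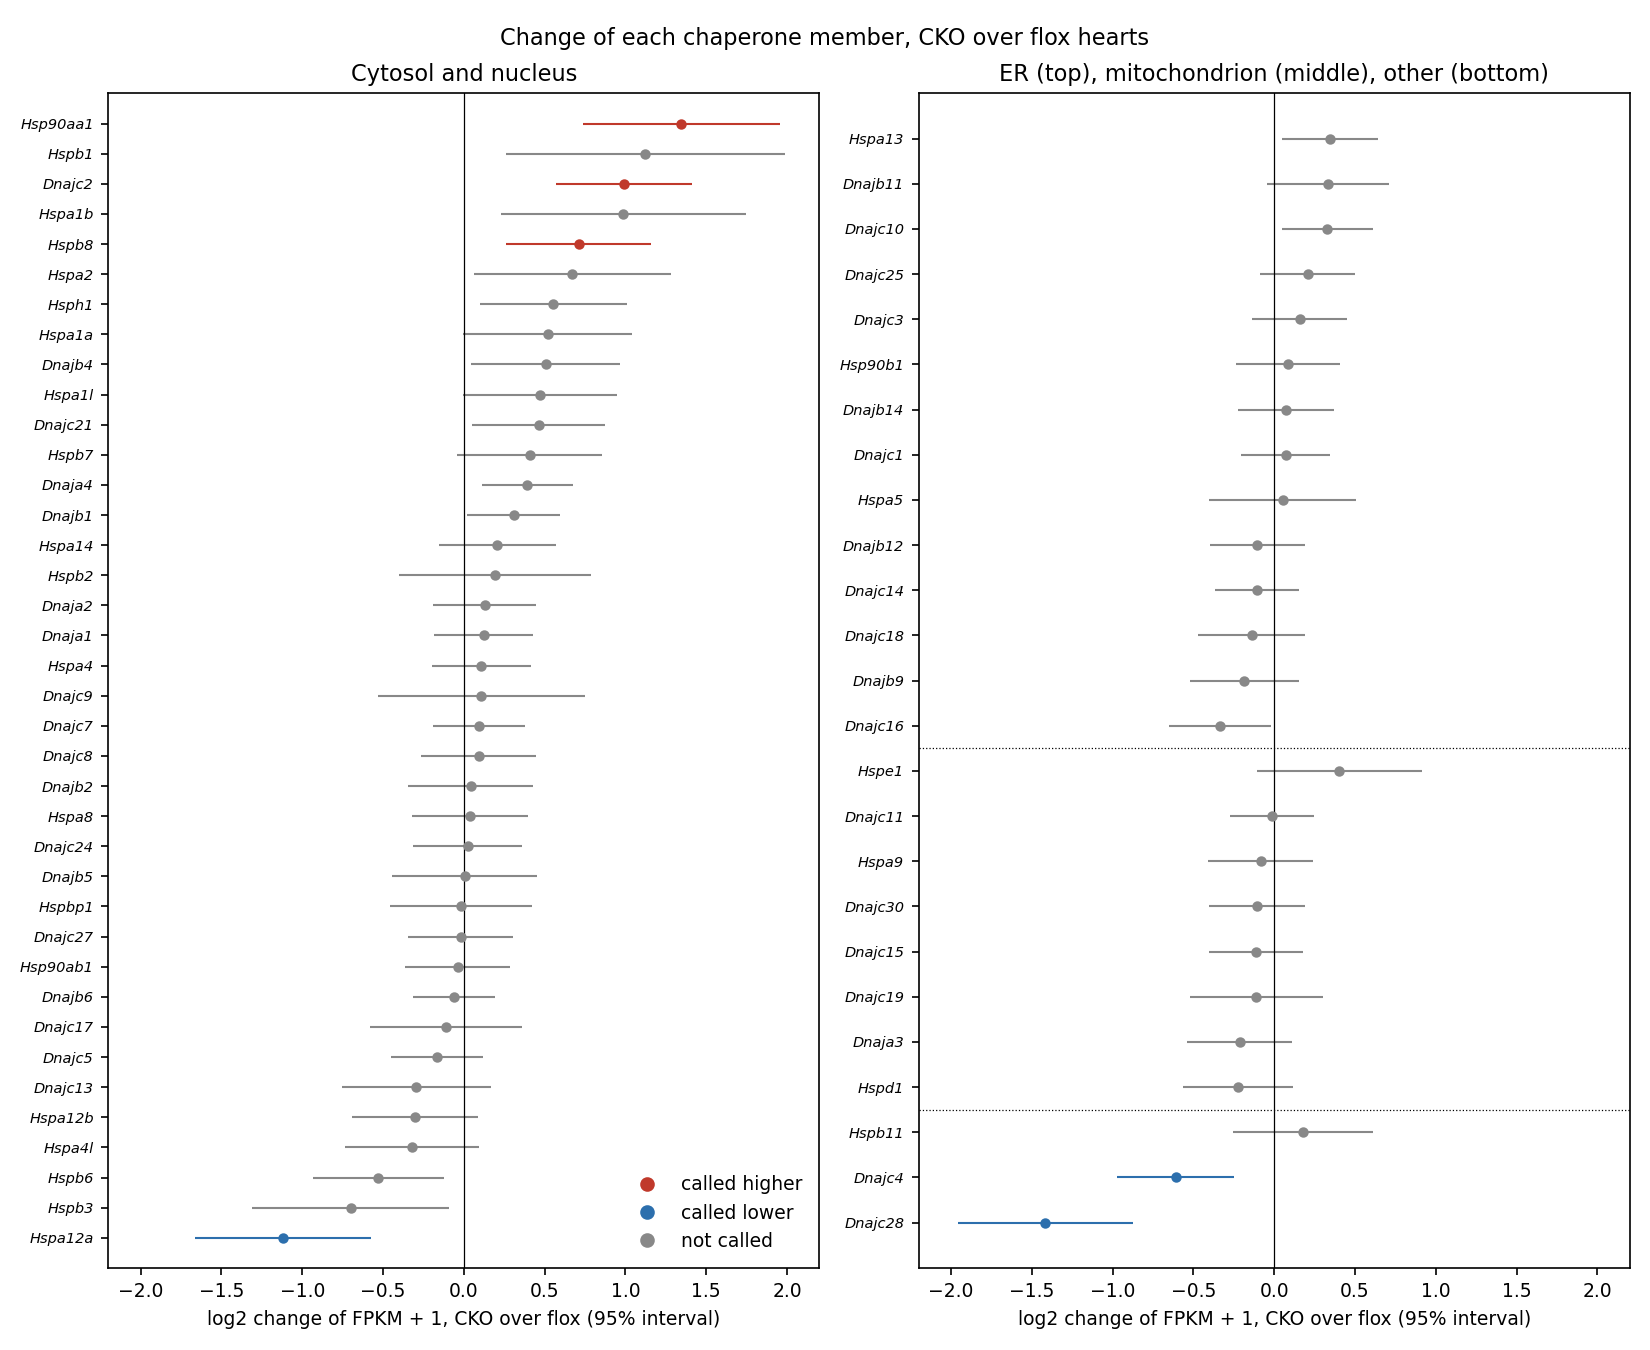
Log2 change of FPKM + 1 (CKO over flox) of each of the 63 tested chaperone genes, with the 95% interval of the limma fit. Genes of the cytosol and nucleus are on the left, and those of the ER, the mitochondrion and the remaining group are on the right from top to bottom. The 6 called genes are coloured, and all 8 mitochondrial and 14 ER genes are grey.

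The 10 genes under the level needed for testing were Dnajb3, Dnajb7, Dnajb8, Dnajb13, Dnajc5b, Dnajc5g, Dnajc6, Dnajc12, Dnajc22 and Hspb9. Dnajc5b and Dnajc5g were at 0 reads in all 6 hearts. Dnajc12 was the highest of the 10, with a mean of 0.658 FPKM in CKO hearts and 0.892 FPKM in flox hearts.

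Among the Hsp90 genes, the stress-inducible cytosolic Hsp90aa1 (ENSMUSG00000021270, chromosome 12, 110690605 to 110702728, GRCm38) was higher in CKO hearts, while values of the constitutive cytosolic Hsp90ab1 overlapped. Hsp90aa1 had 114, 60.6 and 93.5 FPKM in CKO hearts, against 27.9, 31.1 and 43.1 FPKM in flox hearts. The lowest CKO heart thus exceeded the highest flox heart, although replicate 2 was well below the other CKO hearts. The means were 89.5 ± 27.1 FPKM in CKO hearts and 34.0 ± 7.97 FPKM in flox hearts (SD, n = 3 each), a log2 change of 1.35 ± 0.26 (SE) with a limma adjusted p of 0.0189. Without CKO replicate 1 the change was 1.15 (limma adjusted p = 0.0382). The call was lost without flox replicate 1 (adjusted p = 0.079), flox replicate 2 (0.074) or CKO replicate 3 (0.0614).

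Hsp90ab1 had 407, 344 and 349 FPKM in CKO hearts, against 362, 383 and 382 FPKM in flox hearts. The flox hearts lay inside the range of the CKO hearts, and the change was −0.04 ± 0.14 (SE, 95% interval −0.36 to 0.28, limma adjusted p = 0.874). Per length, Hsp90ab1 was the more abundant cytosolic Hsp90 in every heart. The level of Hsp90aa1 was 0.281, 0.176 and 0.268 of that of Hsp90ab1 in the CKO hearts and 0.0772, 0.0812 and 0.113 in the flox hearts, a ratio that, like the 4 others given below, was picked after its values were seen and is a description. Their longest protein-coding transcripts were 76.6% identical over the aligned bases and shared 0% of their stretches of 150 bases, the read length. Hsp90b1, the Hsp90 of the ER, had 54.7, 42.6 and 51.7 FPKM in CKO hearts, against 44.1, 48.6 and 46.8 FPKM in flox hearts. These values overlapped, with a change of 0.09 ± 0.14 (SE, limma adjusted p = 0.702).

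**Figure D2:**
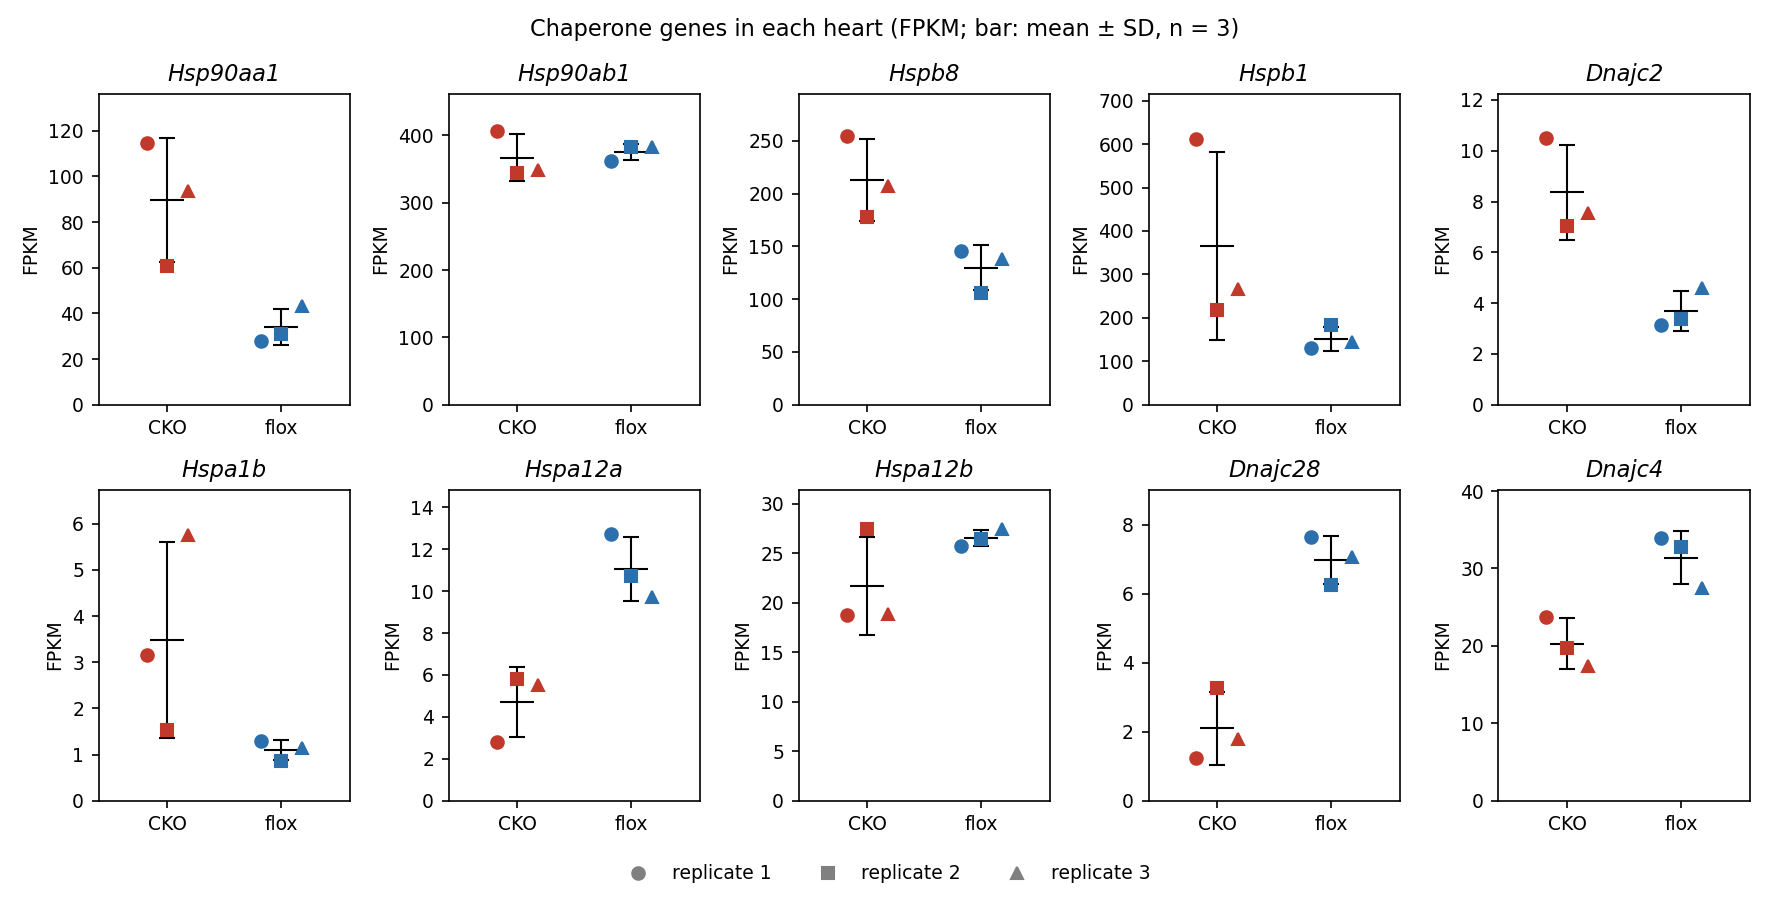
FPKM of 10 chaperone genes in each heart, CKO left and flox right, with symbols for the replicate number and bars for the mean ± SD (n = 3). CKO and flox hearts do not overlap for Hsp90aa1, Hspb8, Hspb1, Dnajc2, Hspa1b, Hspa12a, Dnajc28 and Dnajc4, and they overlap for Hsp90ab1 and Hspa12b.

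Dnajc2 (ENSMUSG00000029014, chromosome 5, 21757267 to 21785251), a ribosome-bound J-domain protein that meets nascent chains, was the J-domain gene called higher. It had 10.5, 7.04 and 7.56 FPKM in CKO hearts, against 3.14, 3.36 and 4.60 FPKM in flox hearts. Every CKO heart exceeded every flox heart, with a log2 change of 0.99 ± 0.18 (SE, n = 3 each, limma adjusted p = 0.0158). Without CKO replicate 1 the change was 0.83 (limma adjusted p = 0.0267), and the call was lost without flox replicate 1 (adjusted p = 0.0715) or flox replicate 2 (0.0665). Its partner in the human ribosome-associated complex is the Hsp70 protein encoded by Hspa14. Hspa14 had 7.49, 5.46 and 5.92 FPKM in CKO hearts, against 4.47, 5.26 and 6.21 FPKM in flox hearts. These overlapped, and the change of 0.21 ± 0.16 (SE) did not pass the threshold (limma adjusted p = 0.397). The ratio of Dnajc2 to Hspa14 was 1.40, 1.29 and 1.28 in the CKO hearts and 0.702, 0.638 and 0.740 in the flox hearts. Dnajc21, a J-domain protein of ribosome assembly in the nucleus and cytosol, had 11.2, 7.01 and 9.32 FPKM in CKO hearts, against 6.96, 6.53 and 5.44 FPKM in flox hearts. Its groups did not overlap, but the change of 0.46 ± 0.18 (SE) was not called (limma adjusted p = 0.119).

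Small heat shock proteins held the largest share of chaperone transcripts in these hearts, and their genes did not move as a block. Of the 7 genes 6 were tested, with a median change of 0.30. Limma called 1 higher and 0 lower, against 6.93% and 7.19% of all genes tested. An unadjusted p under 0.05 was found for 4 of the 6, against 32.1% of all genes tested. Those 4 were Hspb1 and Hspb8, with changes above 0, and Hspb3 and Hspb6, with changes below 0. The summed level of the 7 genes was 1769, 989 and 1198 FPKM in CKO hearts, against 918, 962 and 869 FPKM in flox hearts. CKO replicate 2 thus lay close to the flox hearts.

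Hspb8 (ENSMUSG00000041548, chromosome 5, 116408491 to 116422864), which works with the co-chaperone Bag3 in clearing damaged proteins from muscle, was the small heat shock protein gene called higher. Its levels were 255, 178 and 207 FPKM in CKO hearts, against 146, 105 and 138 FPKM in flox hearts. The groups did not overlap, and the log2 change of 0.71 ± 0.19 (SE, n = 3 each) stood just under the threshold with a limma adjusted p of 0.0496. It was kept without CKO replicate 2 (adjusted p = 0.0451), and it was lost without each other heart. Those adjusted p-values were 0.0834 without CKO replicate 1, 0.109 without CKO replicate 3, and 0.111, 0.168 and 0.0774 without flox replicates 1, 2 and 3. Bag3 had 60.1, 61.0 and 66.1 FPKM in CKO hearts, against 88.8, 74.8 and 65.7 FPKM in flox hearts, a change of −0.28 ± 0.15 (SE, limma adjusted p = 0.237).

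Hspb1, which binds actin and other filaments, had the largest log2 change of FPKM + 1 above 0 among chaperone genes not called. That scale understates low genes such as Hspa1b, whose means were 3.48 FPKM in CKO hearts and 1.10 FPKM in flox hearts. Hspb1 had 612, 217 and 267 FPKM in CKO hearts, against 129, 183 and 144 FPKM in flox hearts. The groups did not overlap, but CKO replicate 1 was more than double each other heart, and the change of 1.12 ± 0.37 (SE) missed the threshold (limma adjusted p = 0.084). Without CKO replicate 1 the change was 0.67 (adjusted p = 0.066), and without CKO replicate 2 it was 1.42 and called (adjusted p = 0.0475). Hspb7, a heart and muscle small heat shock protein and the most abundant chaperone transcript per length here, had 717, 462 and 574 FPKM in CKO hearts, against 414, 478 and 411 FPKM in flox hearts. Those groups overlapped (change 0.41 ± 0.19, SE, limma adjusted p = 0.190), and the change was 0.25 without CKO replicate 1 (adjusted p = 0.328).

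Hspb6, a cardiac small heat shock protein, had 111, 92.0 and 111 FPKM in CKO hearts, against 184, 144 and 129 FPKM in flox hearts. All CKO hearts lay below the flox hearts, and the change of −0.53 ± 0.17 (SE) was not called (limma adjusted p = 0.0826). The ratio of Hspb8 to Hspb6 was 2.30, 1.93 and 1.86 in the CKO hearts and 0.793, 0.731 and 1.07 in the flox hearts. Hspb3, a muscle protein that pairs with the product of Hspb2, had 5.67, 3.74 and 5.18 FPKM in CKO hearts, against 5.31, 9.76 and 11.3 FPKM in flox hearts. Flox replicate 1 fell among the CKO hearts, and the change of −0.70 ± 0.26 (SE) was not called (limma adjusted p = 0.113). Hspb2 had 67.8, 36.9 and 34.0 FPKM in CKO hearts, against 39.7, 40.4 and 35.2 FPKM in flox hearts, and its exons overlap those of Cryab on the opposite strand. Cryab, the gene of another cardiac small heat shock protein whose symbol keeps it out of the 73, had 682, 359.6 and 365 FPKM in CKO hearts, against 333, 314 and 357 FPKM in flox hearts (change 0.42 ± 0.26, SE, limma adjusted p = 0.299). It was 0.12 without CKO replicate 1 (adjusted p = 0.549). Both of these genes were highest in CKO replicate 1, and reads of the overlapping stretch cannot be assigned to either without strand.

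**Figure D3:**
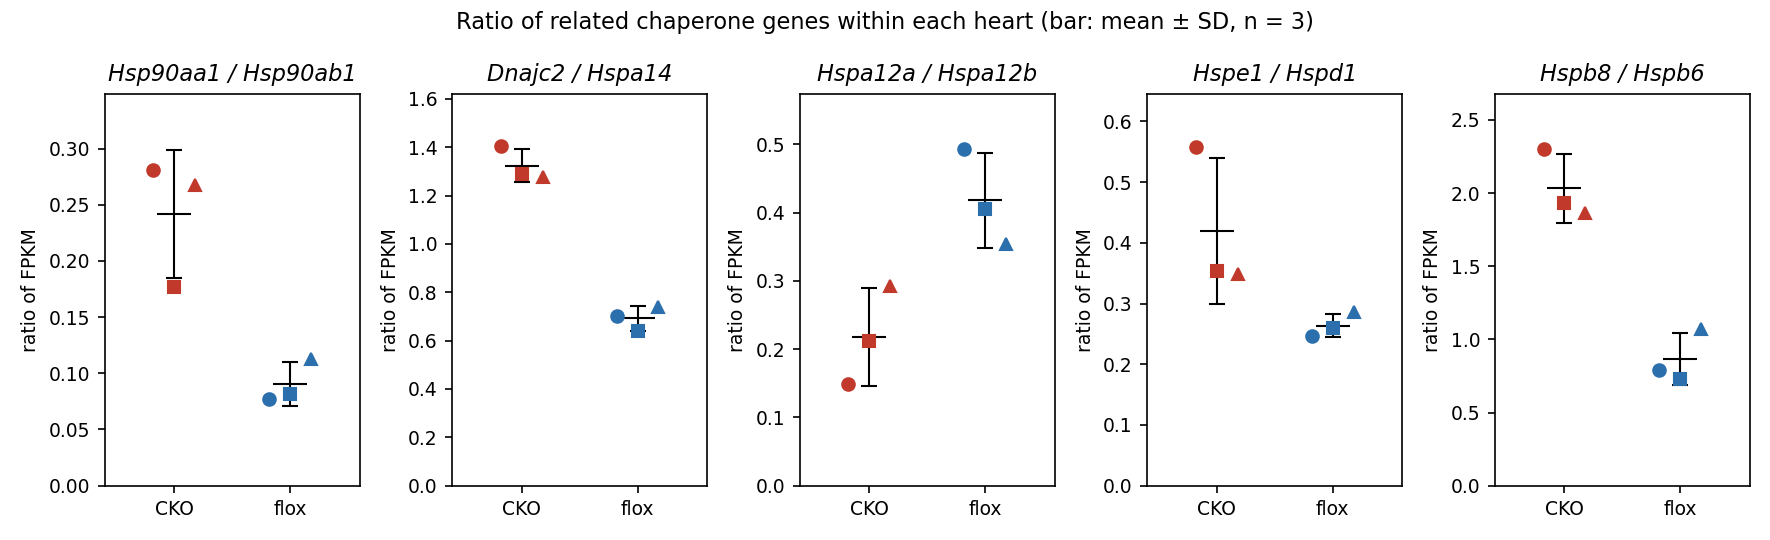
Ratio of the FPKM of 5 pairs of related chaperone genes within each heart, CKO left and flox right, with circles, squares and triangles for replicates 1, 2 and 3 and bars for the mean ± SD (n = 3). The pairs were chosen after their values were seen and carry no test. CKO and flox hearts do not overlap for any of the 5, and the ratio of Hspa12a to Hspa12b alone is lower in CKO hearts.

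The cytosolic Hsp70 genes differed widely in level. Hspa8, the constitutive Hsp70, had 248, 196 and 249.7 FPKM in CKO hearts, against 220.3, 209 and 241 FPKM in flox hearts. The groups overlapped, with a change of 0.04 ± 0.15 (SE, 95% interval −0.32 to 0.40, limma adjusted p = 0.880). The stress-inducible pair Hspa1a and Hspa1b stood at a small fraction of that level. Hspa1b had 3.16, 1.54 and 5.75 FPKM in CKO hearts, against 1.30, 0.867 and 1.13 FPKM in flox hearts. All CKO hearts lay above the flox hearts, and the change of 0.99 ± 0.32 (SE) was not called (limma adjusted p = 0.0832). It was called without CKO replicate 2 (change 1.34, adjusted p = 0.0183) and was 0.98 without CKO replicate 1 (adjusted p = 0.163). Hspa1a had 1.89, 1.005 and 2.41 FPKM in CKO hearts, against 1.204, 0.686 and 0.807 FPKM in flox hearts. CKO replicate 2 fell below flox replicate 1, and the change was 0.52 ± 0.22 (SE, limma adjusted p = 0.159). The transcripts of this pair were 99.1% identical over 2210 aligned bases, and 40.5% of the 150-base stretches of Hspa1b also occur in Hspa1a, so reads may be split between the copies and their single values are uncertain.

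The sequences upstream of these genes are printed to show the copies beside each other and the heat shock element, the binding site of the transcription factor Hsf1. The 250 bases before the annotated start were searched on both strands for the core of the element in either order of its units, TTCNNGAA or GAANNTTC. Windows from RefSeq (GRCm38.p6) matched 59 of the 73 genes. Those without a window were Dnajc2, Dnajc5, Dnajc5b, Dnajc11, Dnajc12, Dnajc18, Dnajc22, Dnajc30, Hsp90aa1, Hsp90ab1, Hspa8, Hspa9, Hspa13 and Hspb2. Below are the 150 bases before the start of Hspa1a (minus strand, chr17:34972157-34972306), Hspa1b (minus strand, chr17:34959239-34959388) and Hspb1 (plus strand, chr5:135887769-135887918), with the cores in capitals.
Hspa1a: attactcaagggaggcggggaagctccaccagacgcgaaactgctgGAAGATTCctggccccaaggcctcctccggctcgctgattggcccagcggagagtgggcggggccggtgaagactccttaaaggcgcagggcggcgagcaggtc
Hspa1b: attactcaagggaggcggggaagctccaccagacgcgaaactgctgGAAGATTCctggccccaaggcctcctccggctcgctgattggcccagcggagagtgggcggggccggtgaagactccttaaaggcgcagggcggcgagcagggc
Hspb1: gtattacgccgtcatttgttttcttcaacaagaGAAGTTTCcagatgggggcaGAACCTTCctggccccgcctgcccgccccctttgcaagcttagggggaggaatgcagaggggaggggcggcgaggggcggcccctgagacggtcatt
The Hspa1a and Hspa1b stretches were identical at 149 of 150 bases, and in both the core starts 104 bases before the RefSeq start. Hspb1 had cores starting 117 and 97 bases before its start.

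Some genes had several windows (76 for the 59 genes), and a gene was counted if any of its windows held the core. The core occurred in 14 of the 59 genes (23.7%), against 14.5% of all 27025 genes with a window. By compartment it was found in 11 of 39 cytosolic and nuclear genes (28.2%), in Hspd1 and Hspe1 among 5 mitochondrial genes (40.0%), and in Dnajc10 among 12 ER genes (8.33%). The windows of Hspd1 and Hspe1 hold the same element, so these are not separate sites. The cytosolic genes with the core were Dnaja1, Dnaja4, Dnajb4, Dnajb6, Dnajc27, Hspa1a, Hspa1b, Hspb1, Hspb3, Hspb6 and Hsph1. None of the 14 genes with a core was called by limma, and 8 of the 14 had an unadjusted p under 0.05, against 14.1% and 32.1% of all genes tested. Of those 8, Hspb3 and Hspb6 had changes below 0 and the others above 0. Only 1 gene called higher, Hspb8, could be searched, because Hsp90aa1 and Dnajc2 had no window. Hsf1 itself had 5.84, 5.09 and 5.87 FPKM in CKO hearts, against 4.97, 5.16 and 5.18 FPKM in flox hearts (change 0.11 ± 0.11, SE, limma adjusted p = 0.509).

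Hspa12a (ENSMUSG00000025092, chromosome 19, 58795751 to 58860984), a distant member of the Hsp70 family, was the Hsp70 gene called lower in CKO hearts. It had 2.80, 5.82 and 5.51 FPKM in CKO hearts, against 12.7, 10.7 and 9.72 FPKM in flox hearts. Every CKO heart lay below every flox heart, CKO replicate 1 lowest, with a log2 change of −1.12 ± 0.23 (SE, n = 3 each, limma adjusted p = 0.0235). Without CKO replicate 1 the change was −0.85 (limma adjusted p = 0.0181), and the call was lost without flox replicate 1 (adjusted p = 0.0927) or flox replicate 2 (0.077). Its nearest relative Hspa12b, known from endothelial cells, had 18.7, 27.4 and 18.9 FPKM in CKO hearts, against 25.8, 26.5 and 27.4 FPKM in flox hearts. CKO replicate 2 lay among the flox hearts, and the change of −0.30 ± 0.17 (SE) was not called (limma adjusted p = 0.250). The level of Hspa12a was 0.149, 0.212 and 0.292 of that of Hspa12b in the CKO hearts and 0.493, 0.405 and 0.355 in the flox hearts. The transcripts of these relatives were 68.6% identical and shared 0% of their 150-base stretches.

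Hspa2, best known for its role in male germ cells, had 13.0, 8.29 and 7.74 FPKM in CKO hearts, against 6.30, 3.65 and 7.31 FPKM in flox hearts. The groups were separated by a narrow gap and the change of 0.67 ± 0.26 (SE) was not called (limma adjusted p = 0.127). Hspa1l, another testis-enriched relative, averaged 1.501 ± 0.514 FPKM in CKO hearts and 0.790 ± 0.273 FPKM in flox hearts (SD, n = 3 each, change 0.47, limma adjusted p = 0.161). The Hsp110 proteins, which act as nucleotide exchange factors of Hsp70, gave 0 calls among 3 genes with limma, against 14.1% of all genes tested. Hsph1 alone of the 3 had an unadjusted p under 0.05, against 32.1% of all genes tested. Hsph1 had 6.09, 4.66 and 6.03 FPKM in CKO hearts, against 3.09, 2.70 and 4.90 FPKM in flox hearts. Flox replicate 3 lay among the CKO hearts, and the change of 0.55 ± 0.20 (SE) was not called (limma adjusted p = 0.0999) unless that heart was left out (0.75, adjusted p = 0.0311). Hspa4, the most abundant of the 3, had a change of 0.11 ± 0.13 (SE) and Hspa4l one of −0.32 ± 0.18 (SE). Hspbp1, an exchange factor that shares only its name with the family, had a change of −0.02 ± 0.19 (SE).

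J-domain proteins numbered 45, of which 36 were tested, with a median change of 0.01. Limma called 1 (2.78%) higher and 2 (5.56%) lower, against 6.93% and 7.19% of all genes tested. Among the class A and B proteins of the cytosol, which carry clients to Hsp70, the abundant Dnaja2 averaged 84.1 ± 6.01 FPKM in CKO hearts and 76.9 ± 7.87 FPKM in flox hearts (SD, n = 3 each). Dnaja1 averaged 10.6 ± 1.12 FPKM in CKO hearts and 9.62 ± 1.10 FPKM in flox hearts. Neither was called, with changes of 0.13 ± 0.14 and 0.12 ± 0.13 (SE). Dnaja4 had 23.4, 20.3 and 23.6 FPKM in CKO hearts, against 17.1, 17.6 and 15.6 FPKM in flox hearts. Its groups did not overlap, and the change of 0.39 ± 0.12 (SE) was not called with the deposited scaling (limma adjusted p = 0.069). Dnajb1, the stress-inducible partner of Hsp70, had 9.41, 8.36 and 8.99 FPKM in CKO hearts, against 7.85, 6.11 and 7.16 FPKM in flox hearts. The groups did not overlap, and the change of 0.31 ± 0.12 (SE) was not called (limma adjusted p = 0.136). Dnajb4 had 16.7, 10.2 and 16.5 FPKM in CKO hearts, against 10.3, 10.2 and 8.51 FPKM in flox hearts, so that CKO replicate 2 lay among the flox hearts. Its change of 0.51 ± 0.20 (SE) was not called (limma adjusted p = 0.126), and it was called without CKO replicate 2 (adjusted p = 0.0239). Dnajb6, which holds back protein aggregation, had a change of −0.06 ± 0.11 (SE), and Dnajb2 and Dnajb5 had changes of 0.04 and 0.00.

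The remaining class C proteins of the cytosol and nucleus, which have single specialised tasks, were not called. Dnajc7, a co-chaperone of both Hsp70 and Hsp90, and the splicing-associated Dnajc8 had changes of 0.09 ± 0.12 and 0.09 ± 0.15 (SE). Dnajc5, which resides on vesicles, averaged 19.6 ± 1.99 FPKM in CKO hearts and 22.0 ± 0.489 FPKM in flox hearts (SD, n = 3 each). Its groups did not overlap, but the change was −0.16 ± 0.12 (SE, limma adjusted p = 0.387). The histone chaperone Dnajc9 had the widest standard error of this class, with a change of 0.11 ± 0.27 and flox values of 5.35, 4.53 and 10.3 FPKM. Dnajc13, an endosomal protein, had a change of −0.29 ± 0.20 (SE), and Dnajc17, Dnajc24 and Dnajc27 lay between −0.11 and 0.02.

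In the mitochondrion, 0 of 8 genes were called by limma or by voom on the recovered reads, and 0 had an unadjusted p under 0.05 with limma. Of all genes tested, limma called 14.1% and 32.1% had an unadjusted p under 0.05. The groups overlapped for all 8, while over all genes tested 19.7% had every CKO heart above and 19.9% every CKO heart below the flox hearts. Changes ran from −0.22 to 0.40 with a median of −0.11, and 7 of the 8 were below 0. With TPM scaling, which moved the median of all genes to 0.13, 2 of the 8 were below 0 and 7 of the 8 were below that median. Their summed level was 383, 340.4 and 369.8 FPKM in CKO hearts, against 396, 340.7 and 427 FPKM in flox hearts. The share of recovered reads from the mitochondrial genome was 11.6% to 14.2% in CKO hearts and 14.5% to 17.0% in flox hearts, and its part in these values was not tested.

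Hspa9, the matrix Hsp70 that drives protein import and folding, had 147, 135 and 152 FPKM in CKO hearts, against 155, 138 and 169 FPKM in flox hearts. The groups overlapped, with a change of −0.08 ± 0.14 (SE, limma adjusted p = 0.708). Hspd1 and Hspe1 encode the chaperonin of the matrix and its lid. Hspd1 had 112, 109 and 119 FPKM in CKO hearts, against 139, 113 and 147 FPKM in flox hearts (change −0.22 ± 0.15, SE, limma adjusted p = 0.329). Hspe1 had 62.6, 38.5 and 41.2 FPKM in CKO hearts, against 34.2, 29.3 and 42.0 FPKM in flox hearts (change 0.40 ± 0.22, SE, limma adjusted p = 0.246). It was 0.19 without CKO replicate 1 (adjusted p = 0.488). Each gene's groups overlapped, while the level of Hspe1 was 0.558, 0.353 and 0.348 of that of Hspd1 in the CKO hearts and 0.247, 0.259 and 0.285 in the flox hearts. The lowest CKO ratio was above the highest flox ratio, and CKO replicate 1 was far above the others.

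These partner genes lie head to head on chromosome 1 with overlapping exons on opposite strands. The RefSeq start of Hspe1 is at position 55088148 on the plus strand, and the starts of Hspd1 are at 55088243 and 55087932 on the minus strand. The stretch shown is the 30 bases around the heat shock element between the outer starts (plus strand, chr1:55088053-55088082). In it, 3 overlapping cores form the run in capitals, which begins 89 bases before the Hspe1 start. The same run lies in the window searched before the Hspd1 start at 55087932. The stretch also overlaps an annotated untranslated region of Hspd1.
Hspe1: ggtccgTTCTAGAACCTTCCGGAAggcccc
Processed pseudogenes can share reads with their parents. Of 14 such rows named after the chaperones 2 averaged at least 1 FPKM, Dnajc19-ps and Hspd1-ps3. Hspd1-ps3 had 9.48, 3.25 and 3.19 FPKM in CKO hearts, against 3.44, 5.26 and 9.87 FPKM in flox hearts, low beside Hspd1 itself. Dnajc19-ps had 7.67, 5.37 and 4.14 FPKM in CKO hearts, against 5.50, 5.99 and 5.97 FPKM in flox hearts. It averaged 5.77 FPKM over all hearts, not far below the 7.11 FPKM of Dnajc19, so the values of Dnajc19 are uncertain.

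None of the J-domain genes of the mitochondrion was called. Dnaja3, the matrix partner of Hspa9, averaged 29.1 ± 2.09 FPKM in CKO hearts and 34.0 ± 4.27 FPKM in flox hearts (SD, n = 3 each), a change of −0.21 ± 0.14 (SE, limma adjusted p = 0.327). Dnajc15 and Dnajc19, which act at the import motor of the inner membrane, had changes of −0.11 ± 0.13 and −0.11 ± 0.18 (SE). Loss of the human gene DNAJC19 causes a cardiomyopathy. Dnajc11, found with the complex that shapes the cristae, had a change of −0.01 ± 0.11, and Dnajc30 one of −0.11 ± 0.13 (SE).

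Among the genes kept outside the 3 compartments, Dnajc28 (ENSMUSG00000039763, chromosome 16, 91614254 to 91619026) had the largest fall of all chaperone genes. It had 1.22, 3.28 and 1.79 FPKM in CKO hearts, against 7.64, 6.25 and 7.07 FPKM in flox hearts. The highest CKO heart was well below the lowest flox heart, with a log2 change of −1.42 ± 0.23 (SE, n = 3 each, limma adjusted p = 0.0116). The change was −1.21 without CKO replicate 1 (limma adjusted p = 0.0211), and the call was lost without flox replicate 1 (adjusted p = 0.0532). Dnajc4 (ENSMUSG00000024963, chromosome 19, 6987911 to 6992503) had 23.8, 19.8 and 17.4 FPKM in CKO hearts, against 33.9, 32.8 and 27.5 FPKM in flox hearts. These groups did not overlap either, with a log2 change of −0.61 ± 0.16 (SE, n = 3 each, limma adjusted p = 0.0408). Without CKO replicate 1 it was −0.73 (adjusted p = 0.0246). The call was lost without CKO replicate 2 (adjusted p = 0.0785), CKO replicate 3 (0.113), flox replicate 1 (0.162) or flox replicate 2 (0.138). Both encode little-studied J-domain proteins that have been listed among mitochondrial proteins. Counting them there gives 0 higher and 2 lower of 10 genes, against 6.93% and 7.19% of all genes tested, and leaves the median at −0.11. Hspb11, which despite its symbol is a part of the ciliary transport machinery, had a change of 0.18 ± 0.19 (SE, limma adjusted p = 0.538).

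In the ER, limma and voom on the recovered reads each called 0 of 14 genes, while limma called 14.1% of all genes tested. With limma 3 of the 14 had an unadjusted p under 0.05, against 32.1% of all genes tested. Changes ran from −0.34 to 0.34 with a median of 0.07, and 9 of the 14 were above 0 with the deposited scaling, 11 with TPM and 8 with quantile normalization. The summed level was 281, 217 and 271 FPKM in CKO hearts, against 247, 249 and 229.7 FPKM in flox hearts, and these overlapped. Hspa5, the ER Hsp70 known as BiP, had 117, 74.9 and 112 FPKM in CKO hearts, against 101, 100.4 and 87.5 FPKM in flox hearts. CKO replicate 2 was the lowest of all hearts, and the change was 0.05 ± 0.19 (SE, 95% interval −0.40 to 0.51, limma adjusted p = 0.880). Among the luminal J-domain proteins, Dnajb11 averaged 20.8 ± 4.07 FPKM in CKO hearts and 16.2 ± 1.67 FPKM in flox hearts (SD, n = 3 each), a change of 0.33 ± 0.16 (SE, limma adjusted p = 0.204) that was 0.18 without CKO replicate 1 (adjusted p = 0.349). Dnajb9, a target of the unfolded protein response, had a change of −0.18 ± 0.15 (SE, limma adjusted p = 0.419), and Dnajc3, an inhibitor of the kinase Perk, one of 0.16 ± 0.13 (SE, limma adjusted p = 0.422).

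The ER genes whose groups did not overlap were Dnajc10, Hspa13 and Dnajc16. This was 2 of 14 with every CKO heart above and 1 with every CKO heart below, against 19.7% and 19.9% of all genes tested. Dnajc10, a J-domain protein that reduces disulfides, had 17.2, 14.2 and 15.0 FPKM in CKO hearts, against 11.6, 12.0 and 12.6 FPKM in flox hearts (change 0.33 ± 0.12, SE, limma adjusted p = 0.108). Hspa13, a small Hsp70 relative, had 5.06, 3.92 and 4.84 FPKM in CKO hearts, against 3.66, 3.06 and 3.504 FPKM in flox hearts (change 0.34 ± 0.13, SE, limma adjusted p = 0.113). Dnajc16 was lower in value, with 4.86, 6.37 and 6.68 FPKM in CKO hearts, against 8.17, 7.43 and 7.66 FPKM in flox hearts (change −0.34 ± 0.13, SE, limma adjusted p = 0.134). The membrane J-domain proteins Dnajb12, Dnajb14, Dnajc1, Dnajc14, Dnajc18 and Dnajc25 had changes between −0.14 and 0.21.

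The ER stress response element (CCAAT, 9 bases of any kind, then CCACG), bound by factors of the unfolded protein response, was searched in the same windows on both strands. It was found in 3 of the 59 genes (5.08%), all of them among the 12 ER genes with a window (25.0%), against 0.130% of all genes. The holders were Hspa5, Hsp90b1 and Dnajc3, none of which was called. Shown are 150 bases before the start of Dnajc3 (plus strand, chr14:118937782-118937931) and 30 bases around the match for Hspa5 (plus strand, chr2:34772020-34772049) and around the nearer of 2 matches for Hsp90b1 (minus strand, chr10:86705527-86705556), with the element in capitals. In Hsp90b1 it reads in the opposite direction.
Dnajc3: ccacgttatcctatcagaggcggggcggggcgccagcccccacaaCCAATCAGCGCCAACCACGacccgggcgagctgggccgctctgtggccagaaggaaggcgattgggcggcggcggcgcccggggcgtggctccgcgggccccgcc
Hspa5: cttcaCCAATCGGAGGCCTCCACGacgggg
Hsp90b1: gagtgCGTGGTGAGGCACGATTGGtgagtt
The matches start 105, 65 and 107 bases before the RefSeq start in that order. The Hspa5 match lies within the gene as the deposited table bounds it, whose start is at 34771970.

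Partner genes of the same machineries were counted by compartment. The cytosolic list of 23 genes held co-chaperones of Hsp70 and Hsp90, Cryab and the transcription factors Hsf1 and Hsf2. It gave 0 higher and 3 lower with limma, against 6.93% and 7.19% of all genes tested, and a median change of 0.12. An unadjusted p under 0.05 was found for 6 of the 23, against 32.1% of all genes tested. The 3 were Unc45b, a chaperone of muscle myosin that binds Hsp90, Fkbp4, an Hsp90-bound prolyl isomerase, and Bag6, which guides membrane proteins and clients for degradation. Unc45b had 26.6, 31.9 and 30.8 FPKM in CKO hearts, against 55.3, 58.5 and 45.1 FPKM in flox hearts. All CKO hearts lay below the flox hearts, with a change of −0.81 ± 0.15 (SE, limma adjusted p = 0.0158, and 0.0264 without CKO replicate 1). The call was lost without flox replicate 1 (adjusted p = 0.0793) or flox replicate 2 (0.0722). Fkbp4 had 67.3, 72.3 and 67.3 FPKM in CKO hearts, against 118, 108 and 107 FPKM in flox hearts. These sets were far apart, with a change of −0.68 ± 0.12 (SE, limma adjusted p = 0.0149) that was not called without flox replicate 1 (0.0875), flox replicate 2 (0.0673) or CKO replicate 3 (0.0535). Bag6 had 28.2, 34.8 and 29.4 FPKM in CKO hearts, against 44.3, 44.5 and 45.2 FPKM in flox hearts. Its change of −0.53 ± 0.13 (SE, limma adjusted p = 0.0348) was not called with TPM (0.0979) or without any flox heart (0.0778 to 0.138) or CKO replicate 3 (0.0989). Some other partners of Hsp90 had changes above 0 that were not called, among them the prolyl isomerases Ppid (0.49 ± 0.14, SE, limma adjusted p = 0.0604, called only without CKO replicate 2) and Fkbp5 (0.52 ± 0.19, adjusted p = 0.116) and the co-chaperone Ptges3 (0.49 ± 0.19, adjusted p = 0.126).

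Of 8 mitochondrial partner genes 1 was higher and 1 lower (6.93% and 7.19% of all genes tested), with a median of −0.14. Clpx, the unfoldase of a matrix protease, had 20.7, 20.5 and 19.3 FPKM in CKO hearts, against 37.9, 34.5 and 26.6 FPKM in flox hearts. The groups did not overlap (change −0.67 ± 0.15, SE, limma adjusted p = 0.0304), and the call was kept without CKO replicate 1 (0.0475) or flox replicate 3 and lost without flox replicate 1 (0.129), flox replicate 2 (0.112), CKO replicate 2 (0.0549) or CKO replicate 3 (0.0883). Grpel2, a nucleotide exchange factor of Hspa9, had 6.94, 5.93 and 6.15 FPKM in CKO hearts, against 4.19, 4.14 and 4.87 FPKM in flox hearts. All CKO hearts were above the flox hearts (change 0.44 ± 0.12, SE, limma adjusted p = 0.0445), and the call was lost without any single heart (0.0532 to 0.176). The summed level of the 8 was 143 to 158 FPKM in CKO hearts, against 174 to 187 FPKM in flox hearts.

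Of 8 ER partner genes 1 was higher and 0 lower (6.93% and 7.19% of all genes tested), and 3 had an unadjusted p under 0.05 (32.1% of all genes). Their median change was 0.47, against 0.07 over the ER chaperones. The partner list was picked by hand with earlier results of these data known, so the choice of genes may shape this difference, which was not tested. Pdia4, a disulfide isomerase of the ER, had 28.8, 20.2 and 26.4 FPKM in CKO hearts, against 15.5, 14.2 and 18.1 FPKM in flox hearts. The groups did not overlap (change 0.62 ± 0.17, SE, limma adjusted p = 0.0483), and the call was kept without CKO replicate 2 (0.0263) and lost without each other heart (0.0557 to 0.164). Sdf2l1 and Creld2, ER proteins induced by unfolded proteins, had changes of 0.83 ± 0.32 and 0.60 ± 0.20 (SE) that were not called (limma adjusted p = 0.128 and 0.0897). Both were highest in CKO replicate 1. Sdf2l1 had 10.3, 3.73 and 5.07 FPKM in CKO hearts, against 2.13, 2.73 and 3.998 FPKM in flox hearts, and these overlapped. The groups of Creld2 did not overlap. With single hearts left out, the change ran from 0.47 to 1.10 for Sdf2l1 and from 0.39 to 0.79 for Creld2. The summed level of the 8 was 90.8 to 146 FPKM in CKO hearts, against 77.6 to 88.0 FPKM in flox hearts, and the groups did not overlap.

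**Figure D4:**
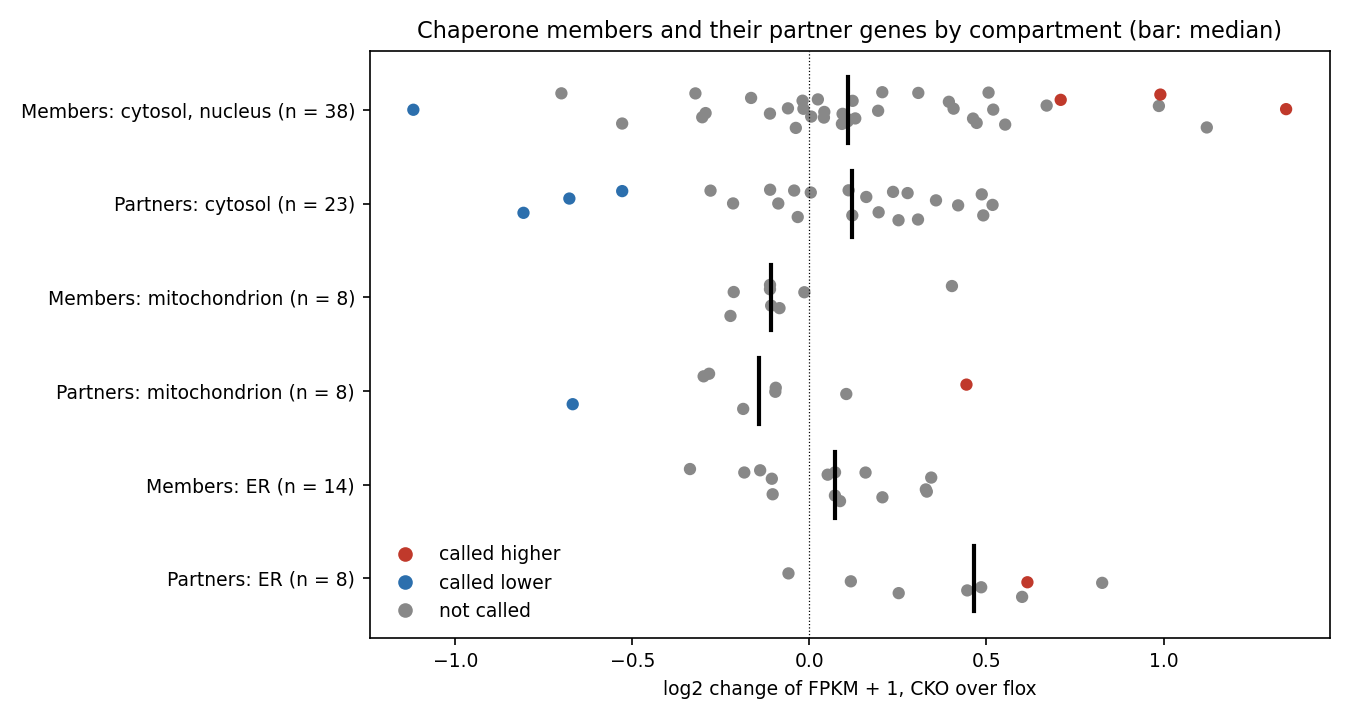
Log2 change of FPKM + 1 (CKO over flox) of the tested chaperone genes and of their partner genes in the cytosol, mitochondrion and ER, with each point a gene and bars for medians. The medians are 0.11, 0.12, −0.11, −0.14, 0.07 and 0.47 from top to bottom, and the vertical scatter within a group has no meaning.

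Set beside each other, the 38 tested genes of the cytosol and nucleus gave 3 higher and 1 lower (10.5% called, against a background of 14.1%) with a median of 0.11, and the mitochondrial and ER genes gave 0 calls. The range of changes was −1.12 to 1.35 in the cytosol and nucleus, −0.22 to 0.40 in the mitochondrion and −0.34 to 0.34 in the ER. These ranges cover 38, 8 and 14 tested genes, and a larger group can span a wider range by its size alone. Dnajc28 (−1.42) and Dnajc4 (−0.61), both called lower, stand outside these compartments. Counted as mitochondrial, they would add 2 calls there and widen that range to −1.42 to 0.40. The difference between compartments was not tested, because genes are not replicates of a condition. The summed level of the cytosolic and nuclear genes was 2971, 1962 and 2301 FPKM in CKO hearts, against 1911, 1947 and 1918 FPKM in flox hearts. CKO replicate 2 lay close to the flox hearts. The small heat shock proteins made up the larger part of the sum in every CKO heart, narrowly so in CKO replicate 2. In every flox heart they made up the smaller part.

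Exons of 14 of the 63 tested genes overlap those of another gene of at least 1 FPKM, among them Dnaja1, Dnaja3, Dnaja4, Dnajc7, Dnajc19, Hspb6, Hspd1 and Hspe1. Whether strand was used in counting was not given in the sources used here, so the values of these genes may hold reads of their neighbours. Of the 6 called genes, Hspa12a alone overlaps another gene, Eno4, which had a mean of 0.0155 FPKM.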

How the data were processed

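Whole-heart messenger RNA of 3 Nat10-CKO and 3 Nat10flox/flox mice was captured on poly-T beads and read as paired ends of 150 bases, per the labels' protocols. Per the series' design text, reads were aligned to GRCm38 (mm10) with HISAT2 2.0.5 and quantified with featureCounts 1.5.0-p3, and the submitters' processing notes also name CASAVA and DESeq2 1.20.0. The authors deposited FPKM values for each heart with gene lengths, and the sources used here do not say how they set the library size. FPKM multiplied by length gave whole reads for 100% of values within 0.01, and the library sizes these imply follow median-ratio size factors of 0.893 to 1.07, so the deposited values are already scaled between hearts.

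Genes averaging 1 FPKM or more were fitted on log2(FPKM + 1) with limma 3.58.1 in R 4.3.3 (empirical Bayes, mean-variance trend, genotype as the only term). Two-sided p-values were adjusted by Benjamini-Hochberg over all 12469 genes, and those under 0.05 were called. Changes are CKO over flox with SE, and on this scale they understate the change of low genes. The fit was tested on simulated data. Recovered reads ran from 15048038 to 16280061 per heart.

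The genes, partner and marker lists, and the compartments, set by hand from general knowledge, were chosen with earlier results of these data known. Named whatever their result were 21 chaperone genes, the 3 most abundant genes of each compartment, Cryab, Bag3, Hsf1 and Nat10. All called chaperone genes and called partner genes were named because they were called. Other genes named were picked after their values were seen. Same-numbered hearts did not vary together, with correlations of their deviations of −0.283, −0.137 and −0.192, so the numbers were not treated as pairs. Promoter windows come from RefSeq (GRCm38.p6), and exon overlaps and transcript identities from GENCODE M21, by local alignment of the longest protein-coding transcripts. Alternatives were pseudocounts of 0.1 and 0.5, no filter, a mean FPKM of at least 5, protein-coding genes only, TPM, quantile normalization, no trend, a replicate block, voom on the recovered reads and leaving out each heart.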

Additional observations from a re-analysis of the deposited data

How the results depend on the processing

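Of 16 alternatives, pseudocounts of 0.1 and 0.5, a mean FPKM of at least 5, protein-coding genes only, no trend and voom on recovered reads left 3 chaperone genes called higher and 2 or 3 called lower, against 3 and 3. Without a filter 0 were higher and 1 lower (Dnajc28). TPM gave 6 higher, adding Hspb1, Dnaja4 and Dnajc21, and quantile normalization 5, adding Hspb1 and Hspb7, with Hspb6 as a further call lower. Over all genes, TPM moved the share of calls that were higher to 69.0%, against 49.1% with the deposited scaling, as the median of all genes moved to 0.13. The fit with a replicate block gave 1 higher (Hsp90aa1) and 1 lower (Dnajc28), though the numbers share no more than a label. Leaving out each heart gave 0 to 7 higher and 1 to 3 lower. None was higher without flox replicate 1 or flox replicate 2, and 364 and 478 genes of all were then called, against 1761. Without CKO replicate 2 the 7 higher were Dnajb4, Dnajc2, Dnajc21, Hsp90aa1, Hspa1b, Hspb1 and Hspb8. Without CKO replicate 3 there was 1, Dnajc2, and without CKO replicate 1 there were 2, Dnajc2 and Hsp90aa1. Without flox replicate 1 the gene called lower was Hspb3.

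The median change with TPM was 0.25 in the cytosol and nucleus, 0.017 in the mitochondrion and 0.21 in the ER, and these were 0.12, −0.11 and 0.08 relative to the median of all genes. The ER median was −0.026 at a mean FPKM of at least 5. Leaving out each heart it ran from 0.030 to 0.15, the highest without CKO replicate 2. The median ran from 0.05 to 0.18 in the cytosol and nucleus and from −0.16 to −0.06 in the mitochondrion when each heart was left out.

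Signs turned only for genes that were not called. Hsp90ab1 was at 0.10 with TPM, 0.052 with quantile normalization, and ran from −0.12 to 0.0056 with hearts left out. Hspa9 was at 0.056 and Nat10 at 0.065 with TPM, and Nat10 ran from −0.10 to 0.013 with hearts left out. Hspa5 was at −0.020 with quantile normalization and ran from −0.066 to 0.25 with hearts left out, and Hspa8 from −0.019 to 0.16. Over 36 named genes and these alternatives, 486 of 570 values kept their sign and their side of the threshold, 64 lost a call, 7 gained a call and 13 turned. The causes were not tested. Planned fits with edgeR and DESeq2 on the recovered reads were not run.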
